A study of Mus musculus with 12 samples.

Results

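The SLC25 family of mitochondrial carriers was described in a line of mouse microglia cultured with neutrophils. Its members were taken as every row of the deposited gene table whose symbol is Slc25a followed by a number and whose transcript types include protein_coding, which gave 43 of 27487 genes. BV2 is an immortalised mouse line of microglia, the macrophages that live in the nervous system. The 12 libraries of polyadenylated RNA fell into 3 groups of 4. CTR held BV2 cells grown alone, Neu held BV2 cells grown with primary mouse neutrophils, and Neu+NETS held BV2 cells grown with such neutrophils after stimulation by phorbol 12-myristate 13-acetate (PMA). PMA activates protein kinase C and drives neutrophils to release extracellular traps (NETs), which are webs of chromatin and granule proteins. No group received PMA without neutrophils, or traps without PMA, so the parts played by PMA, by neutrophils and by traps cannot be told apart. The labels name no strain, no dose and no time, and leave unsaid whether the RNA came from BV2 cells freed of neutrophils. They give retina as the tissue and BV2 as the cell line of the same libraries.

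SLC25 carriers are small proteins of the inner mitochondrial membrane that swap or import metabolites between cytosol and matrix. They share a fold of repeated pairs of membrane helices and are made in the cytosol, bound by the receptor Tomm70 on the outer membrane and inserted into the inner membrane by the TIM22 complex. Each carrier has its own cargo, such as ADP and ATP, phosphate, citrate, amino acids, iron, glutathione, folate or nucleotides, so the family sets which fuels and building blocks cross into and out of the matrix. In macrophages the export of citrate by Slc25a1 is known for feeding the synthesis of fatty acids and inflammatory mediators.

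Each library held 53512190 to 68316549 estimated counts. Levels are given as FPKM, fragments per kilobase of transcript scaled to library size, so they may be compared between genes. The 8 markers of microglia and macrophages summed to 944 to 995 FPKM in CTR, 878 to 916 in Neu and 596 to 609 in Neu+NETS. In Neu+NETS against CTR all 8 were called lower (100%, against 23.7% of all genes). In Neu against CTR 1 was called higher and 3 lower (12.5% and 37.5%, against 26.1% and 27.9% of all genes). Of 15 listed markers of mature neutrophils, 10 were analysed here, and these summed to 14.9 to 16.4 FPKM in CTR, 28.5 to 29.4 in Neu and 3.06 to 3.54 in Neu+NETS. Of the 10, 7 were tested, and 4 of these were called higher and none lower in Neu against CTR (57.1% higher, against 26.1% of all genes). In Neu+NETS against CTR none were called higher and 6 lower (85.7% lower, against 23.7% of all genes). S100a8, which mature neutrophils carry in large amounts, read at most 0.569 FPKM in CTR, 0.257 in Neu and 0.147 in Neu+NETS. Of the 10, Mmp8, Camp and Ngp were at 0 in every Neu+NETS library Ngp also in every CTR library, and none of the 10 in every Neu library. The rise of the sum in Neu was carried by Il1r2 (mean 0.320 in CTR, 8.03 in Neu) and Trem1 (8.83 and 14.0), and the second of these was also read in BV2 cells alone. The 3 precursor markers analysed, Mpo, Elane and Prtn3, summed to 0 to 0.320 FPKM in CTR, 0.348 to 0.624 in Neu and 0 to 0.0929 in Neu+NETS. Only 1 of them was tested. It was called higher in Neu than in CTR, at a log2 fold change of 2.65, and lower in Neu+NETS than in Neu, at -3.15. Of 4 listed erythroid markers 2 were analysed here, and these summed to at most 0.776 FPKM. Of 7 listed retinal markers 2 were analysed here. Glul, which is not specific to retina, read 24, 19.7 and 22.7 FPKM in CTR, Neu and Neu+NETS, and the rod gene Pde6b stayed under 1 FPKM in every library. Transcripts of the mitochondrial genome made up 2.87% ± 0.120 of counts in CTR, 2.79% ± 0.0920 in Neu and 2.94% ± 0.0462 in Neu+NETS (SD, n = 4). The part of these shifts in the carrier results was not tested. In bulk RNA, fewer cells that express a carrier and less of its RNA per cell cannot be told apart.

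With neutrophils that had no PMA, carriers fell more often than they rose, and with PMA-stimulated neutrophils rises and falls were equal in number. In Neu against CTR, 18 of 41 tested carriers fell (43.9%) and 8 rose (19.5%), where 27.9% of all genes tested were called lower and 26.1% higher. Together 63.4% of carriers and 54.1% of all genes were called. The median log2 fold change of the tested carriers was -0.16, against 0.020 over all genes tested. In Neu+NETS against CTR, 10 rose and 10 fell (24.4% each), close to the 21.6% and 23.7% of all genes (48.8% against 45.3% in either direction), with a median of -0.039 against 0.00021. Between the co-cultures, 18 carriers were higher in Neu+NETS than in Neu (43.9%) and 7 lower (17.1%), where 29.4% of all genes were higher and 33.1% lower. In either direction this was 61.0% of carriers and 62.5% of all genes, and the median was 0.14 against -0.049. Calls are at an adjusted p under 0.05 in edgeR's quasi-likelihood test (Benjamini-Hochberg over all 16387 genes tested, two-sided, n = 4 libraries a group), and this test gave each adjusted p below. Log2 fold changes are given ± SE. The counts over carriers were not tested as a set, and the comparisons share groups, so they are not independent. The split in Neu+NETS against CTR moved with the scaling, to 11 rises and 7 falls with RLE factors and to 12 and 7 with DESeq2. The distance of the carriers' median from that of all genes was smaller among genes of at least 1 FPKM. It went in Neu against CTR from -0.18 to -0.11 with edgeR on such genes and -0.086 with limma on log2(FPKM + 1), and in Neu+NETS against Neu from 0.19 to 0.11 and 0.090. With limma 18 of 34 carriers and 5045 of 11626 genes were called lower in Neu. The labels do not state that the 4 replicates of a group were separate cultures, and the spread on which the p-values rest may therefore be technical.

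**Figure D1:**
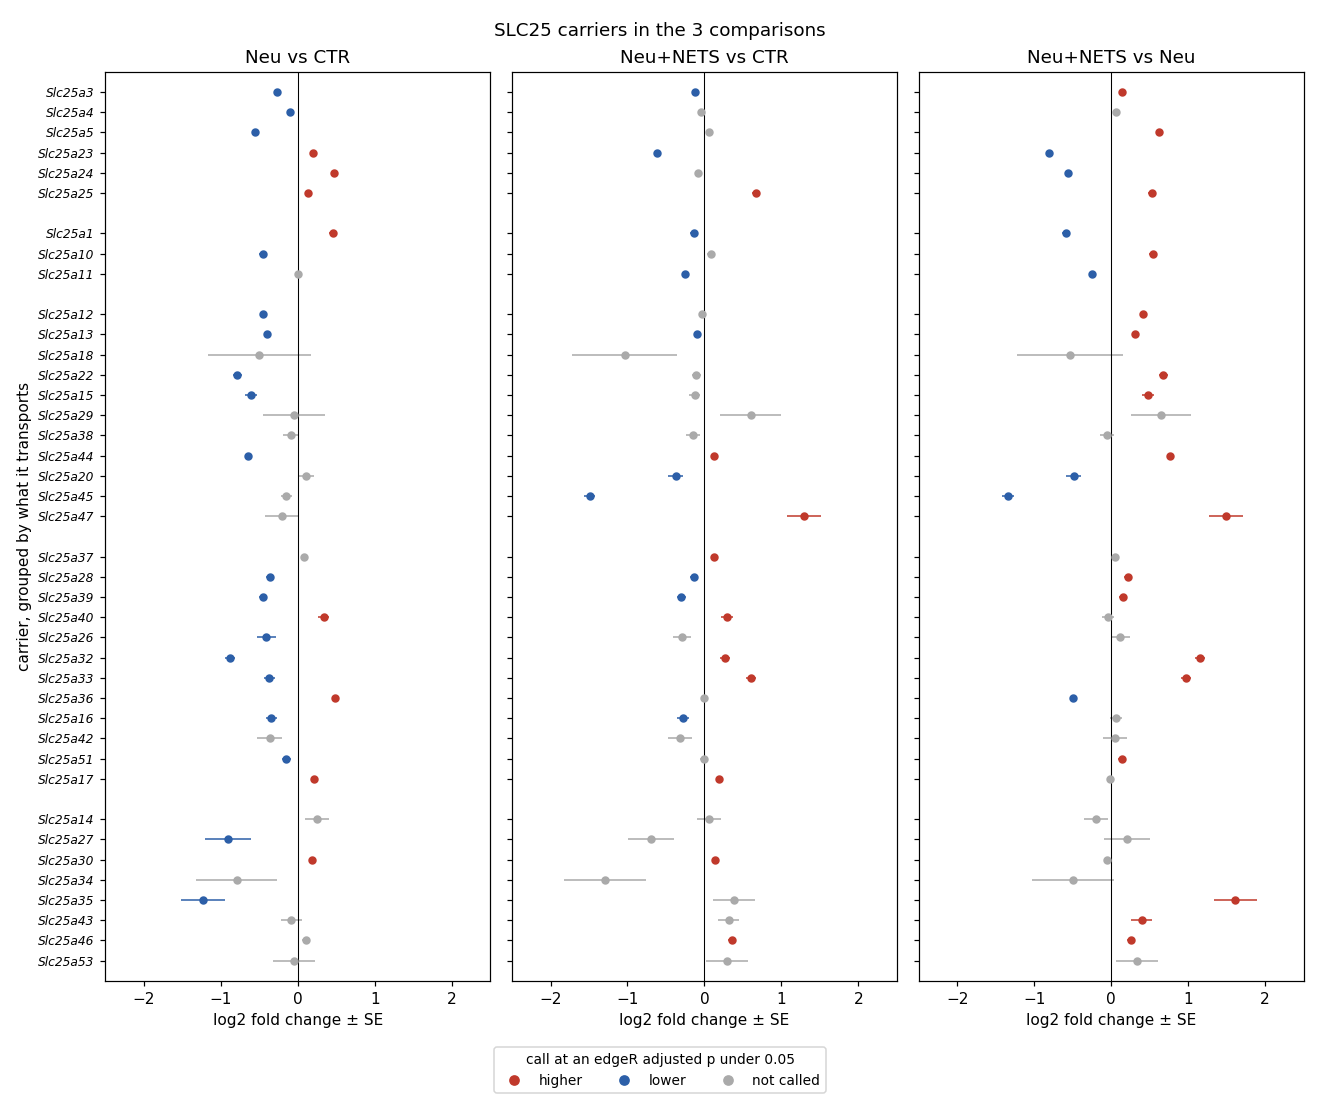
Log2 fold change ± SE (horizontal axis) of tested carriers (vertical axis, grouped by cargo) in the 3 comparisons, with calls at an adjusted p under 0.05 in colour. In Neu against CTR 18 points are called lower and 8 higher, and in Neu+NETS against Neu 18 are called higher and 7 lower.

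The ADP/ATP and phosphate carriers that supply oxidative phosphorylation had the highest mean levels of the family, and each was lowest in Neu. Slc25a3 stood only a little above the next carriers, Slc25a39 and Slc25a11, with means of 95.5, 84.9 and 75.1 FPKM in CTR. Slc25a5, Slc25a4 and Slc25a3 together made up 57.6% ± 0.940 of the summed carrier FPKM in CTR, 52.7% ± 1.19 in Neu and 59.5% ± 0.685 in Neu+NETS (SD, n = 4). The sum over all 43 carriers was 1105 to 1145 FPKM in CTR, 879 to 903 in Neu and 1124 to 1147 in Neu+NETS, so Neu lay below both other groups, which overlapped. In large part the sum follows Slc25a5, with means of 422, 276 and 456 FPKM. With limma on log2(FPKM + 1) the median log2 fold change over all genes was -0.082 in Neu against CTR, and 0 with no filter. Slc25a5 (ENSMUSG00000016319, chromosome X, 36059304 to 36062460, plus strand on GRCm39) encodes ANT2, the ADP/ATP carrier of dividing cells, which brings ADP in and lets ATP out. Slc25a5 read 429, 439.9, 412 and 408 FPKM in CTR, 276, 280.0, 278 and 269 in Neu and 457, 460.0, 463 and 442 in Neu+NETS. The 3 groups were separate, Neu being lowest and Neu+NETS highest. The log2 fold change was -0.56 ± 0.031 (adjusted p = 1.1e-10) in Neu against CTR, 0.061 ± 0.031 (adjusted p = 0.125) in Neu+NETS against CTR and 0.62 ± 0.031 (adjusted p = 1.5e-11) in Neu+NETS against Neu. The difference between Neu+NETS and CTR was called, as higher in Neu+NETS, in 6 alternative settings. These were DESeq2, RLE factors, each limma setting and the fit without CTR replicate 2. Reads of its pseudogene Slc25a5-ps, listed at no more than 0.326 FPKM, or of near-identical copies can be split with it, which makes its value uncertain to that extent. Slc25a4 (ENSMUSG00000031633, chromosome 8, 46659834 to 46664321, minus strand) encodes ANT1, the ADP/ATP carrier known best from heart and muscle. Slc25a4 read 129, 136, 123 and 123 FPKM in CTR, 114, 114, 116 and 113 in Neu and 129.5, 128, 129 and 128 in Neu+NETS. Every Neu library was below every other, while CTR and Neu+NETS overlapped. The fall in Neu was small, -0.11 ± 0.034 (adjusted p = 0.0124), and was not called with upper-quartile factors or on genes of at least 1 FPKM. Against CTR in Neu+NETS the value was -0.039 ± 0.034 (adjusted p = 0.382), with a sign that differed on the FPKM scale. In Neu+NETS against Neu it was 0.068 ± 0.034 (adjusted p = 0.0903). That difference was not called, though it was in 6 alternative settings. Slc25a3 (ENSMUSG00000061904, chromosome 10, 90952436 to 90959921, minus strand) carries the phosphate that ATP synthase needs, and also copper. Slc25a3 read 99.9, 93.3, 95.1 and 94.0 FPKM in CTR, 76.1, 77.1, 75.5 and 77.4 in Neu and 89.6, 92.0, 92.8 and 90.3 in Neu+NETS. All 3 groups stood apart, from Neu at the bottom to CTR at the top. Its log2 fold change was -0.26 ± 0.025 (adjusted p = 1.1e-07) in Neu against CTR, -0.12 ± 0.025 (adjusted p = 0.00107) in Neu+NETS against CTR and 0.15 ± 0.025 (adjusted p = 6.8e-05) in Neu+NETS against Neu.

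**Figure D2:**
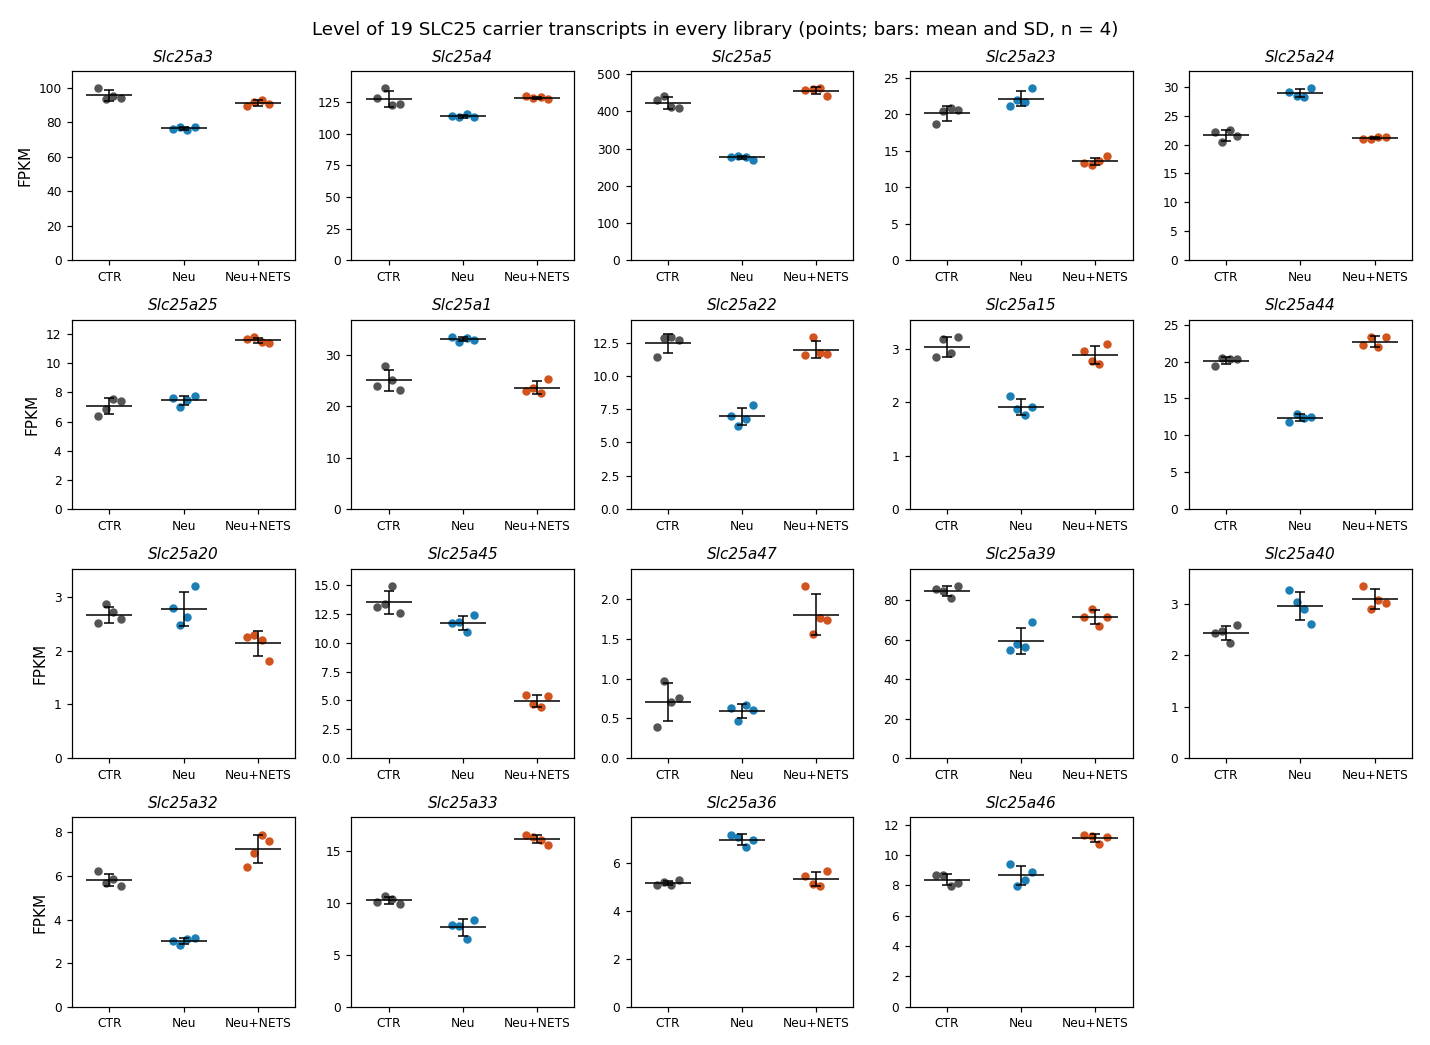
FPKM (vertical axes, each from 0) of 19 carriers in the 12 libraries, with a point per library and a bar for mean and SD (n = 4). Slc25a5, Slc25a22, Slc25a44 and Slc25a32 are lowest in Neu, Slc25a1, Slc25a24 and Slc25a36 highest in Neu, and Slc25a45 and Slc25a23 lowest in Neu+NETS.

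The calcium-regulated carriers that exchange ATP-Mg for phosphate, and so set the size of the matrix adenine nucleotide pool, took different courses. Of the 6 adenine nucleotide and phosphate carriers, 3 rose and 3 fell in Neu (against 26.1% and 27.9% of all genes), and the 3 that rose were Slc25a23, Slc25a24 and Slc25a25. Slc25a24 read 22.1, 20.4, 22.6 and 21.5 FPKM in CTR, 29.0, 28.3, 28.3 and 29.8 in Neu and 21.0, 21.0, 21.2 and 21.3 in Neu+NETS. The 4 Neu libraries all lay above the other 8, and CTR and Neu+NETS overlapped. Slc25a24 (chromosome 3, 109030465 to 109075773) had a log2 fold change of 0.47 ± 0.033 (adjusted p = 1.8e-09) in Neu against CTR, -0.082 ± 0.033 (adjusted p = 0.0522) in Neu+NETS against CTR and -0.55 ± 0.033 (adjusted p = 1.3e-10) in Neu+NETS against Neu. Slc25a23 read 18.6, 20.5, 20.8 and 20.5 FPKM in CTR, 21.2, 22.0, 21.7 and 23.6 in Neu and 13.3, 13.0, 13.6 and 14.2 in Neu+NETS. No group overlapped another: Neu+NETS lay lowest, CTR between and Neu highest. For Slc25a23 the log2 fold change was 0.19 ± 0.040 (adjusted p = 5.9e-04) in Neu against CTR, -0.62 ± 0.041 (adjusted p = 2.0e-09) in Neu+NETS against CTR and -0.81 ± 0.041 (adjusted p = 1.5e-11) in Neu+NETS against Neu. Slc25a25 read 6.35, 6.88, 7.57 and 7.41 FPKM in CTR, 7.59, 7.02, 7.47 and 7.74 in Neu and 11.6, 11.8, 11.4 and 11.4 in Neu+NETS. Between CTR and Neu the ranges overlapped, and Neu+NETS lay wholly above both. Slc25a25 rose 1.59-fold in Neu+NETS, a log2 fold change of 0.66 ± 0.048 (adjusted p = 5.5e-09), and in Neu the value was 0.14 ± 0.048 (adjusted p = 0.0240). Its call in Neu was lost in 7 alternative settings, which were each limma setting and 4 fits with 1 library left out. In Neu+NETS, then, Slc25a25 was called higher and Slc25a23 lower than both in CTR and in Neu. Slc25a25 overlaps Naif1 on the opposite strand, at 1.91, 2.06 and 2.13 FPKM in CTR, Neu and Neu+NETS. The strand setting is not given, so shared reads cannot be told apart.

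Carriers of the citric acid cycle's acids were split, with the citrate carrier up and the dicarboxylate carrier down in Neu. Slc25a1 (ENSMUSG00000003528, chromosome 16, 17743087 to 17746083, minus strand) exports citrate to the cytosol. Slc25a1 read 23.9, 27.9, 25.2 and 23.2 FPKM in CTR, 33.5, 32.6, 33.2 and 33.0 in Neu and 22.9, 23.6, 22.7 and 25.3 in Neu+NETS. The 4 Neu libraries all lay above the other 8, and CTR and Neu+NETS overlapped. It rose 1.37-fold in Neu, with a log2 fold change of 0.46 ± 0.052 (adjusted p = 1.0e-06), and was lower in Neu+NETS than in Neu, -0.59 ± 0.052 (adjusted p = 2.8e-08). Slc25a10, which exchanges malate and succinate for phosphate, read 19.6 ± 0.526, 13.7 ± 0.973 and 21.5 ± 1.38 FPKM in CTR, Neu and Neu+NETS (mean ± SD, n = 4). It fell in Neu, at a log2 fold change of -0.46 ± 0.049 (adjusted p = 4.0e-07) and stood higher in Neu+NETS than in Neu, 0.54 ± 0.048 (adjusted p = 3.2e-08). Slc25a11, the oxoglutarate and malate carrier of the malate-aspartate shuttle, read 75.1 ± 4.06, 72.2 ± 3.03 and 65.3 ± 2.75 FPKM. Its log2 fold change was -0.0012 ± 0.039 (adjusted p = 0.983) in Neu and -0.25 ± 0.039 (adjusted p = 5.0e-05) in Neu+NETS, so the test was passed in the second only, and the direct difference was -0.25 ± 0.039 (adjusted p = 2.8e-05). Slc25a1 and Slc25a10, which both handle acids of the cycle, thus moved in opposite directions in both comparisons that include Neu.

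Some amino acid carriers fell in Neu, and the others were not called. Of 11 tested carriers of amino acids and carnitine, none rose and 5 fell in Neu (against 26.1% and 27.9% of all genes), so 45.5% were called in either direction, below the 54.1% of all genes. In Neu+NETS against Neu 6 were higher and 2 lower (against 29.4% and 33.1% of all genes). Slc25a22 (ENSMUSG00000019082, chromosome 7, 141009657 to 141017805, minus strand) brings glutamate into the matrix with protons. Slc25a22 read 11.4, 12.8, 12.9 and 12.7 FPKM in CTR, 7.01, 6.25, 6.73 and 7.81 in Neu and 11.6, 12.9, 11.7 and 11.6 in Neu+NETS. The 4 Neu libraries all lay below the other 8, and CTR and Neu+NETS overlapped. The log2 fold change was -0.78 ± 0.059 (adjusted p = 5.1e-09) in Neu, -0.11 ± 0.058 (adjusted p = 0.155) in Neu+NETS and 0.68 ± 0.059 (adjusted p = 2.1e-08) between them. Slc25a44 (ENSMUSG00000050144, chromosome 3, 88317805 to 88332446, minus strand) carries branched-chain amino acids, known from brown fat. Slc25a44 read 19.4, 20.4, 20.3 and 20.4 FPKM in CTR, 11.9, 12.9, 12.3 and 12.5 in Neu and 22.2, 23.3, 22.0 and 23.4 in Neu+NETS. No group overlapped another: Neu lay lowest, CTR between and Neu+NETS highest. Its log2 fold change was -0.64 ± 0.036 (adjusted p = 1.1e-10) in Neu against CTR, 0.13 ± 0.035 (adjusted p = 0.00754) in Neu+NETS against CTR and 0.77 ± 0.036 (adjusted p = 5.4e-12) in Neu+NETS against Neu. Slc25a15, the ornithine carrier of the urea cycle, also fell. Slc25a15 read 2.85, 3.19, 2.93 and 3.23 FPKM in CTR, 2.12, 1.87, 1.77 and 1.91 in Neu and 2.96, 2.77, 2.73 and 3.09 in Neu+NETS. Between CTR and Neu+NETS the ranges overlapped, and Neu lay wholly below both. It changed by -0.61 ± 0.078 (adjusted p = 3.3e-06) in Neu and stood 0.48 ± 0.078 (adjusted p = 3.5e-05) higher in Neu+NETS than in Neu on the log2 scale.

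The aspartate/glutamate carriers of the malate-aspartate shuttle, aralar (Slc25a12) and citrin (Slc25a13), fell by similar amounts in Neu. Slc25a12 read 20.7 ± 0.586, 14.6 ± 0.346 and 20.9 ± 0.312 FPKM in CTR, Neu and Neu+NETS, and its log2 fold change was -0.45 ± 0.028 (adjusted p = 5.4e-10) in Neu. Slc25a13 read 29.2 ± 0.940, 21.3 ± 0.373 and 28.3 ± 0.345 FPKM and changed by -0.40 ± 0.032 (adjusted p = 9.7e-09). Against Neu, both were higher in Neu+NETS, by 0.41 ± 0.028 (adjusted p = 8.7e-10) and 0.31 ± 0.032 (adjusted p = 2.0e-07). Slc25a38, which imports the glycine used for heme, read 4.30 ± 0.275, 3.89 ± 0.508 and 4.02 ± 0.273 FPKM and was called in no comparison (smallest adjusted p = 0.229).

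Of the same 11, 2 rose and 3 fell in Neu+NETS against CTR (against 21.6% and 23.7% of all genes). Slc25a45 (ENSMUSG00000024818, chromosome 19, 5927836 to 5935794, plus strand), a carrier of methylated amino acids, had the largest fall of any carrier in that comparison. Slc25a45 read 13.1, 13.4, 14.9 and 12.6 FPKM in CTR, 11.7, 11.8, 10.9 and 12.4 in Neu and 5.45, 4.69, 4.38 and 5.34 in Neu+NETS. The 3 groups were separate, Neu+NETS being lowest and CTR highest. The log2 fold change was -0.15 ± 0.072 (adjusted p = 0.0881) in Neu against CTR, -1.49 ± 0.075 (adjusted p = 5.9e-11) in Neu+NETS against CTR and -1.34 ± 0.075 (adjusted p = 6.0e-11) in Neu+NETS against Neu. Slc25a20 exchanges acylcarnitine for carnitine and so admits long-chain fatty acids to oxidation. Slc25a20 read 2.52, 2.87, 2.72 and 2.60 FPKM in CTR, 2.79, 2.49, 2.63 and 3.22 in Neu and 2.26, 2.30, 2.20 and 1.81 in Neu+NETS. Every Neu+NETS library was below every other, while CTR and Neu overlapped. It fell in Neu+NETS, at a log2 fold change of -0.37 ± 0.097 (adjusted p = 0.00467) against CTR and -0.48 ± 0.097 (adjusted p = 3.3e-04) against Neu. Slc25a47, known from liver and of debated cargo, was low throughout and highest in Neu+NETS. Slc25a47 read 0.392, 0.969, 0.710 and 0.759 FPKM in CTR, 0.632, 0.472, 0.668 and 0.607 in Neu and 2.17, 1.56, 1.77 and 1.74 in Neu+NETS. Between CTR and Neu the ranges overlapped, and Neu+NETS lay wholly above both. The rise was 2.45-fold against CTR, a log2 fold change of 1.29 ± 0.22 (adjusted p = 1.2e-04). It starts 162 bases from the basic amino acid carrier Slc25a29 on the other strand of chromosome 12, which read 0.241, 0.223 and 0.377 FPKM and was called in no comparison. The glutamate carrier Slc25a18 read at most 0.407 FPKM in any library and was called in no comparison.

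In Neu, mitoferrin 2 and the glutathione carrier Slc25a39 fell, and the glutathione carrier Slc25a40 rose. Slc25a28 (mitoferrin 2) and Slc25a37 (mitoferrin 1) bring iron into the matrix for heme and iron-sulfur clusters. Slc25a28 read 16.5 ± 0.647, 12.4 ± 0.695 and 15.6 ± 0.859 FPKM in CTR, Neu and Neu+NETS and fell in Neu, at a log2 fold change of -0.36 ± 0.050 (adjusted p = 1.1e-05). Slc25a37, which blood cell precursors express strongly, read 11.7 ± 0.667, 11.9 ± 0.422 and 13.2 ± 0.713 FPKM, with a log2 fold change of 0.084 ± 0.047 (adjusted p = 0.148) in Neu. Slc25a39 (ENSMUSG00000018677, chromosome 11, 102293811 to 102298370, minus strand) and Slc25a40 import glutathione, the main thiol antioxidant. Slc25a39 read 86.0, 84.7, 81.4 and 87.5 FPKM in CTR, 54.9, 57.8, 56.5 and 69.3 in Neu and 71.4, 75.7, 67.1 and 71.4 in Neu+NETS. The 4 CTR libraries all lay above the other 8, and Neu and Neu+NETS overlapped. For Slc25a39 the log2 fold change was -0.46 ± 0.054 (adjusted p = 1.4e-06) in Neu against CTR, -0.30 ± 0.054 (adjusted p = 2.0e-04) in Neu+NETS against CTR and 0.16 ± 0.054 (adjusted p = 0.0177) in Neu+NETS against Neu. Slc25a40 read 2.44, 2.47, 2.24 and 2.59 FPKM in CTR, 3.27, 3.04, 2.90 and 2.61 in Neu and 3.35, 2.90, 3.08 and 3.03 in Neu+NETS. Every CTR library was below every other, while Neu and Neu+NETS overlapped. Slc25a40 instead rose in both co-cultures, 0.34 ± 0.076 (adjusted p = 0.00117) in Neu and 0.29 ± 0.076 (adjusted p = 0.00424) in Neu+NETS. By FPKM Slc25a39 was the more abundant of the pair in every library.

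Among carriers of cofactors and nucleotides, the folate carrier fell most. Over the 13 carriers of iron, glutathione, cofactors and nucleotides, 3 rose and 7 fell in Neu (against 26.1% and 27.9% of all genes) and 5 rose and 3 fell in Neu+NETS against CTR (against 21.6% and 23.7% of all genes). The 23.1% that fell in Neu+NETS was at the level of all genes. Slc25a32 (ENSMUSG00000022299, chromosome 15, 38954626 to 38976111, minus strand) imports folate for mitochondrial one-carbon metabolism and is also tied to FAD supply. Slc25a32 read 6.21, 5.66, 5.85 and 5.56 FPKM in CTR, 3.03, 2.83, 3.09 and 3.17 in Neu and 6.43, 7.07, 7.90 and 7.60 in Neu+NETS. No group overlapped another: Neu lay lowest, CTR between and Neu+NETS highest. The log2 fold change was -0.88 ± 0.065 (adjusted p = 3.7e-09) in Neu against CTR, 0.27 ± 0.063 (adjusted p = 0.00219) in Neu+NETS against CTR and 1.15 ± 0.065 (adjusted p = 6.9e-11) in Neu+NETS against Neu. Its fall in Neu was the largest among carriers with a mean of at least 1 FPKM. Beside it, the matrix folate enzyme gene Mthfd2 read 21.2 ± 0.767, 7.63 ± 0.133 and 39.0 ± 0.713 FPKM with log2 fold changes of -1.42 ± 0.034 (adjusted p = 3.2e-15) in Neu and 0.83 ± 0.032 (adjusted p = 2.5e-12) in Neu+NETS. Slc25a16, a coenzyme A carrier, read 4.11, 3.12 and 3.51 FPKM and fell in both, at a log2 fold change of -0.34 ± 0.074 (adjusted p = 8.5e-04) and -0.28 ± 0.074 (adjusted p = 0.00580). Slc25a26, which imports S-adenosylmethionine, the methyl donor, read 1.94, 1.40 and 1.63 FPKM and fell in Neu, at a log2 fold change of -0.41 ± 0.12 (adjusted p = 0.00934). Slc25a17, a peroxisomal carrier of cofactors, rose in both, by 0.21 ± 0.037 (adjusted p = 1.2e-04) and 0.19 ± 0.037 (adjusted p = 4.4e-04). Slc25a51, which imports NAD, read 6.54, 5.67 and 6.76 FPKM, with log2 values of -0.15 ± 0.053 (adjusted p = 0.0272) in Neu and -0.0030 ± 0.053 (adjusted p = 0.972) in Neu+NETS. The coenzyme A carrier Slc25a42 was called in no comparison, at 0.834, 0.620 and 0.691 FPKM.

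The pyrimidine nucleotide carriers Slc25a33 and Slc25a36 supply the matrix with the precursors of mitochondrial DNA and RNA. They changed in opposite directions in both comparisons that include Neu. Slc25a33 read 10.1, 10.7, 10.4 and 9.91 FPKM in CTR, 7.89, 7.77, 6.55 and 8.41 in Neu and 16.6, 16.3, 16.0 and 15.6 in Neu+NETS. The 3 groups were separate, Neu being lowest and Neu+NETS highest. Slc25a33 (ENSMUSG00000028982, chromosome 4, 149828493 to 149858734, minus strand) had a log2 fold change of -0.37 ± 0.069 (adjusted p = 2.1e-04) in Neu against CTR, 0.60 ± 0.068 (adjusted p = 1.5e-06) in Neu+NETS against CTR and 0.97 ± 0.069 (adjusted p = 1.5e-09) in Neu+NETS against Neu. Slc25a36 read 5.09, 5.19, 5.07 and 5.26 FPKM in CTR, 7.18, 7.09, 6.67 and 6.93 in Neu and 5.46, 5.13, 5.05 and 5.66 in Neu+NETS. The 4 Neu libraries all lay above the other 8, and CTR and Neu+NETS overlapped. Slc25a36 (ENSMUSG00000032449, chromosome 9, 96957014 to 96993210, minus strand) rose in Neu by 0.49 ± 0.041 (adjusted p = 1.9e-08) and was lower in Neu+NETS than in Neu, -0.49 ± 0.041 (adjusted p = 1.1e-08). In Neu+NETS against CTR its value was -0.0028 ± 0.041 (adjusted p = 0.965). A noncoding gene lies on the opposite strand of each, Gm13068 at 0.245, 0.151 and 0.458 FPKM in Slc25a33 and Gm16185 at 1.14, 1.77 and 1.42 in Slc25a36 (means in CTR, Neu and Neu+NETS).

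The start regions of this pair are shown because their transcripts moved apart while both hold the E-box CACGTG, the site bound by Myc and related factors. Sequences are from RefSeq on GRCm38.p6, 5′ to 3′ on the gene's strand, upstream of the annotated start and with the E-box in capitals. Of the Slc25a33 window (chr4:149774268-149774517, minus strand) all 250 bases are printed. Its last 10 bases, with the E-box, lie in an exon of the gene in a second annotation. For Slc25a36 (chr9:97111158-97111291, minus strand) the 134 bases farthest upstream are printed, since the rest of its window lies in an exon of the gene in that annotation.
Slc25a33: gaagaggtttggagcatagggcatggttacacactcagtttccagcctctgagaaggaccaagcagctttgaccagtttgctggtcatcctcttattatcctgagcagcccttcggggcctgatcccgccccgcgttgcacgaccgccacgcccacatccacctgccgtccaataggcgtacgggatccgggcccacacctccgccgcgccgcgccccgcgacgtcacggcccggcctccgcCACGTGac
Slc25a36: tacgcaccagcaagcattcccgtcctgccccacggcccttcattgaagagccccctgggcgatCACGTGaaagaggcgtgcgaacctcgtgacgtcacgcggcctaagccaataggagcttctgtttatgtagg
The E-box begins 8 bases before the start in Slc25a33 and 187 bases before it in Slc25a36.

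In all, 33 of the 43 carriers were matched by symbol to a start region in that table, and 6 motifs were searched on both strands in the 250 bases upstream. The E-box CACGTG was in 6 carriers (18.2%) and in 6.86% of the 27025 genes in the table. Beside Slc25a33 and Slc25a36, the carriers holding it were Slc25a1, Slc25a13, Slc25a14 and Slc25a15, so it stood in carriers that rose and in carriers that fell in Neu. The core of the hypoxia response element, ACGTG, which every E-box also contains, was in 10 carriers (30.3%, against 18.5%). The CCAAT box was in 17 (51.5%, against 37.5%), and the cAMP response element TGACGTCA was in Slc25a25 and Slc25a36 (6.06%, against 1.77%). The site of nuclear respiratory factor 1, GCGCA then any base then GCGC, was in Slc25a3 only (3.03%, against 4.23%), and TGATGNAA, an ATF4 site, in none of the 33 (against 3.91%). These are matches of letters, and binding was not measured.

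The remaining carriers are relatives of the uncoupling proteins, a protein of the outer membrane and carriers of unsettled cargo. Of 8 tested, 1 rose and 2 fell in Neu (against 26.1% and 27.9% of all genes) and 2 rose and none fell in Neu+NETS against CTR (against 21.6% and 23.7% of all genes). The 25% that fell in Neu and the 25% that rose in Neu+NETS were near those of all genes. Slc25a46 sits in the outer membrane and shapes mitochondria and their cristae. Slc25a46 read 8.70, 8.68, 7.98 and 8.15 FPKM in CTR, 9.40, 7.95, 8.39 and 8.90 in Neu and 11.3, 11.2, 10.7 and 11.2 in Neu+NETS. Every Neu+NETS library was above every other, while CTR and Neu overlapped. It rose in Neu+NETS by 0.36 ± 0.050 (adjusted p = 1.4e-05), with 0.10 ± 0.050 (adjusted p = 0.0941) in Neu. Slc25a30, an uncoupling protein relative, rose slightly in both, 0.19 ± 0.044 (adjusted p = 0.00180) in Neu and 0.14 ± 0.044 (adjusted p = 0.0184) in Neu+NETS, at 7.47, 8.17 and 8.49 FPKM. Its relatives Slc25a14 and Slc25a27 read 2.05, 2.35 and 2.21 FPKM and 0.340, 0.171 and 0.214 FPKM, and of these Slc25a27 had a log2 fold change of -0.90 ± 0.30 (adjusted p = 0.0175) in Neu. Slc25a35 read 0.584, 0.237 and 0.793 FPKM, with -1.23 ± 0.28 (adjusted p = 0.00127) in Neu and 1.61 ± 0.28 (adjusted p = 8.3e-05) in Neu+NETS against Neu. It overlaps the end of Rangrf by 33 bases on the opposite strand. Rangrf read 10.1, 4.76 and 13.9 FPKM, the same order of groups at a higher level, and reads crossing the overlap cannot be told apart. Slc25a43, which lies 18448 bases from Slc25a5, read 5.03, 4.57 and 6.46 FPKM and was not called against CTR in either co-culture. Slc25a34 and Slc25a53 stayed under 1 FPKM in every library and were called in no comparison. Slc25a2 and Slc25a54 did not pass the filter on low counts, at no more than 15 and 6 estimated counts in any library. Of the 41 that passed, 40 stood above the count minimum in all 12 libraries and Slc25a18 in 11, so none passed through one group alone. Slc25a21, Slc25a31, Slc25a41, Slc25a48 and Slc25a52 were not analysed here.

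Shares within sets of related carriers do not depend on how libraries are scaled, and they shifted too. These shares were chosen after the values had been seen and are given as descriptions (mean ± SD of summed FPKM, n = 4). Slc25a5 made up 76.8% ± 0.309 in CTR, 70.7% ± 0.284 in Neu and 78.0% ± 0.284 in Neu+NETS of the ADP/ATP carriers Slc25a4 and Slc25a5. No group overlapped another, and the Neu share was the lowest. Slc25a33 made up 66.6% ± 0.912 in CTR, 52.3% ± 2.15 in Neu and 75.2% ± 1.25 in Neu+NETS of the pyrimidine nucleotide carriers, again with no overlap. Mitoferrin 1 (Slc25a37) made up 41.4% ± 0.544 in CTR, 49.0% ± 1.12 in Neu and 45.9% ± 1.89 in Neu+NETS of the mitoferrins, and the ranges of the co-cultures overlapped while CTR lay below both. Slc25a25 made up 14.4% ± 0.680 in CTR, 12.8% ± 0.393 in Neu and 25% ± 0.630 in Neu+NETS of the ATP-Mg/phosphate carriers Slc25a23, Slc25a24 and Slc25a25, with Slc25a23 at 41.2% ± 1.42 in CTR, 37.8% ± 0.863 in Neu and 29.3% ± 0.791 in Neu+NETS. Aralar made up 41.4% ± 1.17 in CTR, 40.6% ± 0.793 in Neu and 42.4% ± 0.152 in Neu+NETS of the aspartate/glutamate carriers, with CTR overlapping both co-cultures and every Neu library below every Neu+NETS library.

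**Figure D3:**
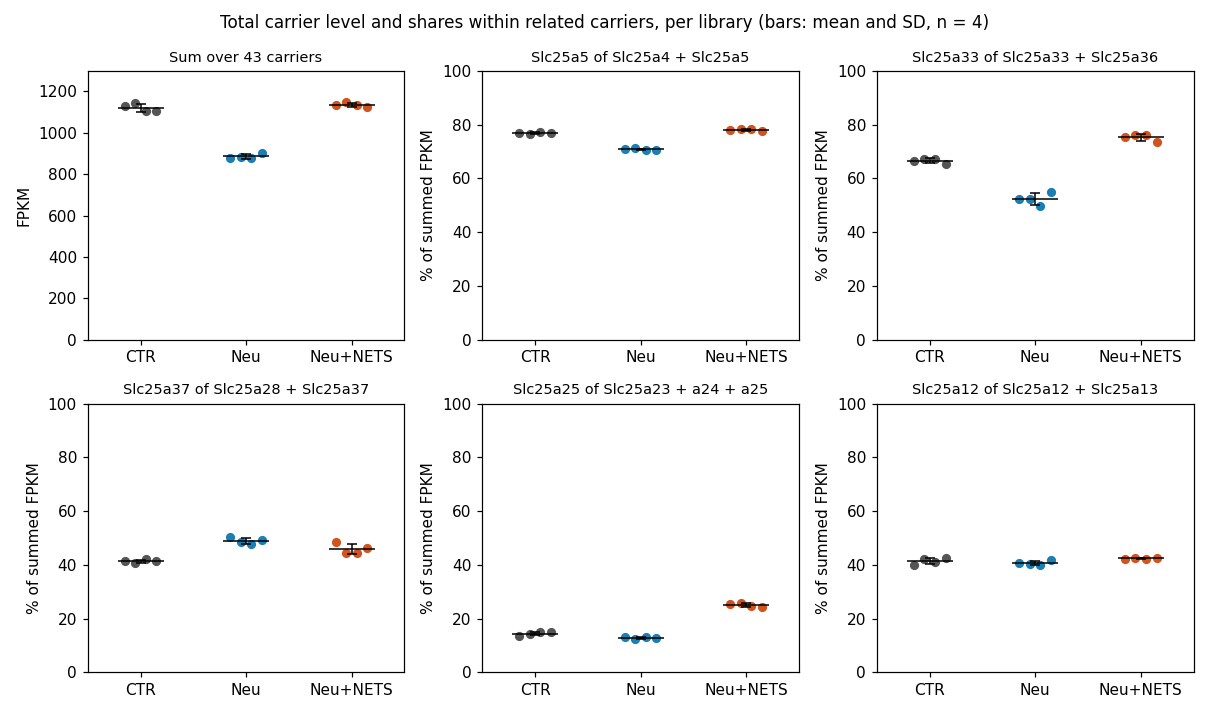
Summed FPKM of the 43 carriers, and 5 shares within related carriers in percent of their summed FPKM, with a point per library and a bar for mean and SD (n = 4), by group. The sum is lowest in Neu, the mean share of Slc25a5 goes from 76.8% ± 0.309 to 70.7% ± 0.284 of its pair in Neu, and Slc25a25 reaches 25% ± 0.630 of its set in Neu+NETS.

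Lists of genes that work with the carriers are read here against all genes tested, of which 26.1% rose and 27.9% fell in Neu (median log2 fold change 0.020), 21.6% rose and 23.7% fell in Neu+NETS against CTR (median 0.00021), and 29.4% were higher and 33.1% lower in Neu+NETS than in Neu (median -0.049). Genes of the machinery that imports and inserts carriers were low in Neu. Of its 12 genes none rose and 11 fell in Neu (91.7%, median -0.61), 6 rose and none fell in Neu+NETS against CTR (median 0.13), and 11 were higher in Neu+NETS than in Neu (median 0.76). Tomm70a, the receptor for carrier precursors, read 25.9 ± 0.980, 18.0 ± 0.140 and 31.3 ± 0.196 FPKM in CTR, Neu and Neu+NETS, a log2 fold change of -0.46 ± 0.028 (adjusted p = 3.4e-10) in Neu. The import pore gene Tomm40 changed by -0.65 ± 0.038 (adjusted p = 2.6e-10) and the receptor gene Tomm20 by -0.50 ± 0.027 (adjusted p = 7.7e-11) in that comparison. Of 15 genes of iron-sulfur and heme synthesis 3 rose and 11 fell in Neu (median -0.29), among them the glutaredoxin Glrx5 at -0.72 ± 0.039 (adjusted p = 7.4e-11) and the porphyrin transport gene Tmem14c at -0.84 ± 0.051 (adjusted p = 3.0e-10). Of these genes 3 rose and 3 fell in Neu+NETS against CTR (median -0.054).

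Of 17 enzymes around citrate and the malate-aspartate shuttle 3 rose and 11 fell in Neu (17.6% and 64.7%, against 26.1% and 27.9% of all genes). In Neu+NETS 5 of them rose and 6 fell (29.4% and 35.3%, against 21.6% and 23.7%). Idh3a, a subunit of the isocitrate dehydrogenase of the cycle, fell in Neu, at a log2 fold change of -0.84 ± 0.030 (adjusted p = 4.5e-13). Idh1, the cytosolic isocitrate dehydrogenase, fell in Neu+NETS, at a log2 fold change of -1.28 ± 0.047 (adjusted p = 1.2e-12). The malic enzyme Me2 rose in Neu by 0.79 ± 0.036 (adjusted p = 9.6e-12). Of 15 ATP synthase subunits, the users of the phosphate and ADP that carriers deliver, none rose and 8 fell in Neu (against 26.1% and 27.9% of all genes) and none rose and 7 fell in Neu+NETS (against 21.6% and 23.7% of all genes), with medians of -0.13 and -0.063. Atp5mc1, a gene of the membrane ring, had the lowest value in Neu of the 3 subunits named by the rule, -0.73 ± 0.083 (adjusted p = 9.6e-07), beside Atp5f1a at -0.26 ± 0.020 (adjusted p = 8.9e-09) and Atp5pb at -0.29 ± 0.025 (adjusted p = 2.4e-08). Among 9 mitochondrial folate genes 2 rose and 3 fell in Neu (against 26.1% and 27.9% of all genes) and 5 rose and none fell in Neu+NETS (against 21.6% and 23.7% of all genes). Gcsh, of the glycine cleavage system, changed by -0.75 ± 0.044 (adjusted p = 2.0e-10) and 0.70 ± 0.043 (adjusted p = 8.1e-10) in those comparisons. Aldh1l2, which oxidises formyl-folate, rose in both, by 2.77 ± 0.055 (adjusted p = 3.5e-16) and 1.79 ± 0.054 (adjusted p = 9.5e-14). Of 9 tested genes of the carnitine shuttle and fatty acid oxidation 3 rose and 3 fell in Neu (against 26.1% and 27.9% of all genes) and 2 rose and 3 fell in Neu+NETS (against 21.6% and 23.7% of all genes). Cpt2, the matrix partner of Slc25a20, rose in Neu by 0.42 ± 0.051 (adjusted p = 1.9e-06), Acadl, which oxidises long acyl chains, by 0.18 ± 0.039 (adjusted p = 7.9e-04). Hadhb, of the trifunctional protein, fell in Neu, at a log2 fold change of -0.28 ± 0.053 (adjusted p = 2.8e-04).

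Of 17 genes of other routes across the mitochondrial membranes 4 rose and 7 fell in Neu (23.5% and 41.2%, against 26.1% and 27.9% of all genes) and 4 rose and 8 fell in Neu+NETS against CTR (23.5% and 47.1%, against 21.6% and 23.7%). The shares that rose were near those of all genes. Vdac1, the outer membrane channel through which carrier cargo passes, rose in Neu by 0.61 ± 0.030 (adjusted p = 1.9e-11). Mcub, a subunit that restrains the calcium uniporter, rose by 0.90 ± 0.070 (adjusted p = 8.2e-09). Letm1, an inner membrane protein of cation exchange, fell, at a log2 fold change of -1.34 ± 0.044 (adjusted p = 1.7e-13). Of proteins with a carrier fold but another symbol, Ucp2, Mtch1 and Mtch2 were analysed here. Ucp2, the uncoupling protein of immune cells, changed by -0.11 ± 0.037 (adjusted p = 0.0178) in Neu and -0.18 ± 0.037 (adjusted p = 6.5e-04) in Neu+NETS. Mtch1 changed by -0.11 ± 0.032 (adjusted p = 0.00808) and -0.35 ± 0.032 (adjusted p = 1.2e-07), and Mtch2, an insertase of the outer membrane, by -0.42 ± 0.036 (adjusted p = 2.7e-08) and 0.084 ± 0.036 (adjusted p = 0.0710).

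**Figure D4:**
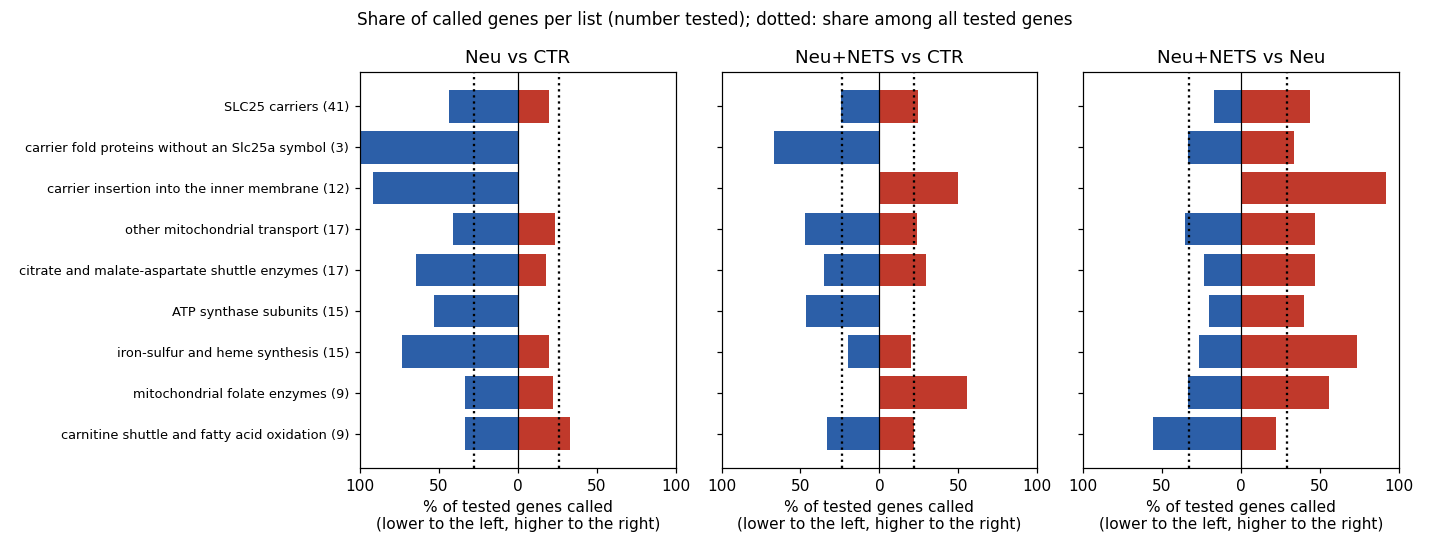
Percent of tested genes called lower (left) and higher (right) among the carriers and 8 lists of partner genes (number tested in brackets), in the 3 comparisons, with dotted lines at the percent called among all genes tested. Carrier insertion genes are called lower in Neu (11 of 12) and higher in Neu+NETS than in Neu (11 of 12).

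Of the 71 calls of carriers over the 3 comparisons, 10 were lost when 1 library was left out, and these are values near the threshold. In Neu against CTR these were Slc25a25, lost without CTR replicates 1 or 2 or Neu replicates 1 or 3 (adjusted p 0.0560 to 0.0868), Slc25a51, lost without CTR replicates 3 or 4 or Neu replicates 1 or 4 (adjusted p 0.0639 to 0.0896), and Slc25a27, lost without CTR replicate 1 (adjusted p = 0.0727). In Neu+NETS against CTR, Slc25a1, at -0.13 ± 0.053 (adjusted p = 0.0463) with all libraries, was lost without CTR replicates 2 or 3, Neu replicates 1, 2 or 3 or Neu+NETS replicates 1, 2 or 3 (adjusted p 0.0570 to 0.201). Slc25a13, at -0.095 ± 0.032 (adjusted p = 0.0205), was lost without CTR replicates 1 or 3 or Neu+NETS replicates 3 or 4 (adjusted p 0.0531 to 0.0794). The mitoferrins Slc25a37, at 0.13 ± 0.047 (adjusted p = 0.0329), and Slc25a28, at -0.14 ± 0.050 (adjusted p = 0.0366), were lost without CTR replicates 2 or 4 or Neu+NETS replicates 1, 3 or 4 (adjusted p 0.0635 to 0.0985) and without CTR replicates 1, 2 or 3 or Neu+NETS replicates 1 or 2 (adjusted p 0.0550 to 0.126), in that order. In Neu+NETS against Neu, Slc25a39 was lost without Neu replicates 1 or 3 or Neu+NETS replicate 2 (adjusted p 0.0572 to 0.0705), Slc25a51, at 0.14 ± 0.053 (adjusted p = 0.0259), without Neu replicates 1 or 4 or Neu+NETS replicate 4 (adjusted p 0.0774 to 0.0886) and Slc25a43, at 0.40 ± 0.14 (adjusted p = 0.0218), without Neu replicates 1 or 3 or Neu+NETS replicate 4 (adjusted p 0.0642 to 0.0869). Every other call of a carrier held with each library left out in turn.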

How the data were processed

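Polyadenylated RNA of 12 libraries of BV2 cells was sequenced. Per the submitters' processing notes the tools were HISAT2 2.0.4, StringTie 1.3.4d and edgeR, on GRCm39. Which step each tool ran, and the strand setting, were not stated. The deposited table gives, per the file headers, an estimated count and an FPKM value for each gene and library, both made by the authors, with coordinates. Of counts from 2 to 41, 33% were multiples of 4, where an even spread gives 25%, so 1 count may stand for less than 1 sequenced fragment. Within groups, the chi-square per degree of freedom was 1.96 to 4.79 over 18 pairs of libraries. As the number of fragments behind a count is not known, these values cannot show whether libraries varied beyond counting noise. Nor can they tell separate cultures from technical libraries. Each library was counted as 1 replicate.

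The deposited counts were fitted with edgeR 4.0.16 (R 4.3.3, filterByExpr, TMM factors 0.970 to 1.03, all 12 libraries, quasi-likelihood tests of the 3 pairs of groups). Benjamini-Hochberg adjustment ran over all 16387 genes tested, and the SE was taken as the absolute log2 fold change over the root of the F statistic. The biological coefficient of variation was 12.5%. The edgeR and limma steps were tested on simulated data. Alternatives used DESeq2 1.42.0, limma 3.58.1 on log2(FPKM + 1) or log2(FPKM + 0.1), RLE and upper-quartile factors, other filters, a replicate block, counts divided by 4, the 8 libraries compared, and each library left out.

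Carriers described by library are the 4 called with the largest log2 fold change in each direction of each comparison, at a mean of at least 1 FPKM in the higher group, and the 3 most abundant. From each list of partner genes the 3 genes with the smallest adjusted p in any comparison are named. One carrier and 1 partner gene are in the counts but not reported by name here. The members and lists were chosen with earlier results of these data known. Gene coordinates are those of the deposited table, and promoter sequences are RefSeq's on GRCm38.p6.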

Additional observations from a re-analysis of the deposited data

Results flagged for a closer look

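In 7 groups of 4 libraries 1 library stood far from the other 3, by a gap above the critical share of the range at the 95% level of Dixon's test. The test was made on 127 groups, and chance alone marks about 1 in 20. CTR replicate 1 was involved in 3 of them. Slc25a23 read 18.6 FPKM there and 20.5 to 20.8 in the other CTR libraries, Slc25a22 read 11.4 against 12.7 to 12.9, and Slc25a44 read 19.4 against 20.3 to 20.4. Slc25a10 read 20.4 FPKM in CTR replicate 2 and 19.2 to 19.4 in the other CTR libraries. Slc25a22 read 12.9 FPKM in Neu+NETS replicate 2 and 11.6 to 11.7 in the other Neu+NETS libraries. Slc25a38 read 4.64 FPKM in Neu replicate 4 and 3.56 to 3.67 in the other Neu libraries. Slc25a54, which was too low to test, read 0.0448 FPKM in Neu replicate 2 and was at 0 in the other Neu libraries.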

How the results depend on the processing

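Under 23 alternative settings, the counts of carriers called in the 3 comparisons stayed within 1.5 times of those reported. Over the 57 log2 fold changes of the 19 carriers described by library, 1239 of 1311 values kept direction and side of the threshold, 30 lost the call, 24 gained one and 18 changed sign, none of these called. Slc25a36 in Neu+NETS against CTR, reported at -0.0028, turned to 0.027 with DESeq2, 0.021 with RLE factors, 0.0056 with no filter, 0.038 with limma on log2(FPKM + 1) with or without a filter, 0.045 with a pseudocount of 0.1, 0.00072 on counts divided by 4, and up to 0.022 without CTR replicate 2 or 4 or Neu+NETS replicate 2 or 3 (range with 1 library left out -0.028 to 0.022). Slc25a40 in Neu+NETS against Neu, reported at -0.041, turned to 0.049 and 0.064 with limma (pseudocounts of 1 and 0.1) and 0.012 without Neu replicate 1 (range with 1 library left out -0.11 to 0.012). Slc25a4 in Neu+NETS against CTR, reported at -0.039, turned to 0.011 with limma at either pseudocount. The cause was not tested.

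The split of calls moved more. In Neu+NETS against CTR carriers were 10 higher and 10 lower as reported, 12 higher and 7 lower with DESeq2, 11 higher and 7 lower with RLE factors and 12 higher and 7 lower with limma. In Neu against CTR they were 10 higher and 14 lower among the 34 carriers left when only genes of at least 1 FPKM were fitted, against 8 higher and 18 lower of 41. Slc25a27 and Slc25a35 were then not tested, and Slc25a4 and Slc25a51 lost their calls. Over all genes tested, limma on FPKM gave 3180 higher and 5045 lower in Neu against CTR, where the count test gave 4284 higher and 4578 lower. It gave 4019 higher and 2852 lower in Neu+NETS against CTR, where the count test gave 3535 higher and 3885 lower, and 5341 higher and 3581 lower in Neu+NETS against Neu, where it gave 4819 higher and 5422 lower. In Neu+NETS against Neu the median was 0.10 over the 11626 genes of the limma fit and -0.049 over the 16387 genes of the count test. These differ in gene set as well as in scale. Limma on log2(FPKM + 1) with no filter gave a median of 0, and edgeR on genes of at least 1 FPKM gave -0.028.

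Replicate numbers of the groups pair nothing in the labels, and the deviations of same-numbered libraries correlated at -0.055 to 0.043 over 12 pairs. With the replicate number as a block the carriers were 8 higher and 19 lower in Neu against CTR, 10 higher and 9 lower in Neu+NETS against CTR and 18 higher and 7 lower in Neu+NETS against Neu. The lowest carriers had few counts, and of these Slc25a2 and Slc25a54 could not be tested. Slc25a34 in Neu+NETS against CTR and Slc25a29 in Neu+NETS against Neu were not called but passed the threshold in 5 and 2 of the alternatives (smallest adjusted p = 0.0150 and 0.0382).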
